A study of Mus musculus with 7 samples.

Results

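Chromatin accessibility was examined at 43 genes that encode regulators of chromatin and DNA methylation, in regulatory T cells (Treg cells) with and without Opa1, which encodes a dynamin-like protein that fuses inner mitochondrial membranes. A peak, an interval of accessible DNA in the deposited ATAC-seq table, was assigned to a member gene if it overlapped the gene, or if it lay within 100 kb of it and that gene was the nearest protein-coding gene. The 43 genes took 310 of 50213 peaks, 253 overlapping a member and 57 outside it, and 14280 protein-coding genes of the series had at least 1 peak by the same rule. The members comprised 16 writers with 82 peaks, 18 erasers with 129 peaks, and 9 remodellers and corepressor scaffolds with 99 peaks.

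Treg cells were sorted from the spleens of mixed bone marrow chimeras in which equal parts of donor marrow carried CD45.1 or CD45.2. Donors of the CD45.2+ part were Foxp3Cre Opa1fl/fl in the Opa1 KO chimeras (3 libraries, KO) and Foxp3Cre alone in the controls (4 libraries, WT), so both groups carried the Cre. Cre is driven by Foxp3, and deletion is therefore limited to cells that express or have expressed it. The sorted cells were CD45.2+, CD45.1-, CD4+ and positive for the Foxp3-YFP reporter, and they shared each host with CD45.1+ cells that were not profiled. The sources used here do not give the age of the mice or the exons deleted from Opa1.

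Writers add chemical groups to histones or DNA, erasers remove them, and remodellers use ATP to move or evict nucleosomes. Several of these enzymes consume metabolites that mitochondria help to supply: methyltransferases use S-adenosylmethionine, acetyltransferases use acetyl-CoA, TET dioxygenases and the JmjC histone demethylases use 2-oxoglutarate, and sirtuins use NAD. In Treg cells, DNA demethylation by TET enzymes at the Foxp3 locus and repression by the Polycomb enzyme Ezh2 are known to help keep the lineage stable.

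None of the members' sites passed the test of KO against WT. Of the 310 peaks, 250 had enough counts to be tested, and the other 60 averaged at most 10.4 counts. At an adjusted p under 0.05 in edgeR's quasi-likelihood test, 0 of the 250 were called, where 33 of all 38041 tested peaks were (0.0867%; 0.0473% with KO higher and 0.0394% with KO lower). The smallest adjusted p of a member peak was 0.304. An unadjusted p under 0.05 was reached by 11 member peaks with KO above WT (background 4.74%) and by 10 with KO below WT (background 4.73%). In all these were 8.4% of the members' tested peaks, against 9.47% of all tested peaks. The KO and WT libraries did not overlap at 10 member peaks with KO higher (background 4.85%) and at 9 with KO lower (background 4.51%), 7.6% of the tested member peaks against 9.36% of all tested peaks. The median log2 fold change (KO over WT, as throughout) was -0.03 over the member peaks and -0.00 over all tested peaks. These counts do not show that the sites were equal: the 95% interval of the fold change lay inside 1.5-fold in either direction at 67 of the 250 member peaks. A count difference in such bulk samples could come from fewer cells with an open site or from a less open site in each cell, and these cannot be told apart.

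Total counts in peaks were 3384325, 1658436 and 1948041 in KO replicates 1 to 3 and 2134586, 1534394, 1706750 and 1951574 in WT replicates 1 to 4. The counts of WT replicates 2 and 3 agreed within sampling noise (p = 0.0843 in a chi-square test over 36418 peaks). For that reason their average entered each mean ± SD as 1 sample, and n is 3 for both genotypes. Where these replicates differ at a site, the averaging can make the WT SD smaller than the spread of the libraries. All 4 WT libraries stayed separate in the tests. At the 11332 peaks with the highest counts a difference was found (p = 0.0346 by chi-square), so whether WT replicates 2 and 3 are 1 sample is not settled. Over the 36418 peaks, chi-square per degree of freedom was 1.010 for this pair and 1.023 to 1.088 for the other WT pairs. For the KO pairs it was 1.047 to 1.069, so no pair was far from sampling noise. WT replicates 2 and 3 also had the lowest total counts in WT, which makes a difference harder to find. Nothing else in the labels ties a library to a mouse, so the p-values measure the spread between these libraries. Levels are in CPM, counts divided by library totals that were adjusted with TMM factors. The tested Opa1 peak (chr16:29579139-29579524) had 33.3, 29.1 and 42.6 CPM in KO and 36.8, 33.8, 37.3 and 37.9 CPM in WT, which does not check the genotype labels because the deleted exons are unknown. Peaks at 6 Treg and T cell marker genes summed to 941 to 972 CPM in KO and 898 to 945 CPM in WT. Peaks of the CD8 markers Cd8a and Cd8b1 summed to 24.96 to 36.1 CPM in KO and 20.5 to 29.8 CPM in WT. Among B cell, myeloid, NK and erythroid markers, Ms4a1, Lyz2, Csf1r, Ncr1 and Hba-a1 had no listed peak, and the peaks of Pax5, Spi1 and Klrb1c, summed for each gene, reached at most 23.2 CPM in KO and 31.3 CPM in WT. The part of these markers in the members' values was not tested.

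The loci differed far more from each other than between genotypes. The median member had 4 peaks, and 6 members had 1. Arid1b, a DNA-binding subunit of the BAF remodelling complex, had 35 peaks. Chd7, an ATP-dependent remodeller, and Hdac9, a class IIa deacetylase, had 28 each, and Hdac4, another class IIa deacetylase, had 23. Longer genes held more peaks within their bounds (Spearman's rho 0.624 across the 43 genes, a description). Compared with all tested peaks, fewer member peaks lay within 1 kb of a gene end, 17.2% against 27.98%. Their median width was 354 bp, against 356 bp for all tested peaks, and their median level 14.6 CPM, against 14.0 CPM.

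The lead peak of each member was taken as its strongest peak within 1 kb of either end of the gene or, where there was none, its strongest peak. Kdm4a, a JmjC demethylase of histone H3, had the highest lead peak of all members per length, at 292 CPM per kb, and it was the only peak of that gene (chr4:118179530-118180347). Its level was 251, 253 and 232 CPM in KO and 243, 245, 226 and 221 CPM in WT. The groups overlapped, at 246 ± 11.9 CPM in KO and 233 ± 10.9 CPM in WT, and the 95% interval of the log2 fold change ran from -0.09 to 0.24. The Hdac4 start peak (chr1:92180128-92181048) followed with 240.2 ± 5.05 CPM in KO and 221 ± 9.97 CPM in WT, at 251 CPM per kb.

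Smarca2, the BRM ATPase of the BAF complex, had 245 CPM per kb at its start (chr19:26604782-26605283). Its KO libraries stood at 127 to 128 CPM and its WT libraries at 115 to 125 CPM, so the groups did not overlap, but the log2 fold change was 0.09 (95% interval -0.11 to 0.30). Rcor1, the CoREST scaffold that joins a demethylase to deacetylases, had 109 ± 2.29 CPM in KO and 119.8 ± 8.95 CPM in WT at its start. The start peak of Kdm6a, the X-linked demethylase that removes the Polycomb mark, had 117, 112 and 127 CPM in KO and 107, 109.7, 96.3 and 99.1 CPM in WT (chrX:18162246-18162733). Every KO library lay above every WT library there, and the log2 fold change was 0.21 with an SE of 0.11 (adjusted p = 0.556).

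**Figure D1:**
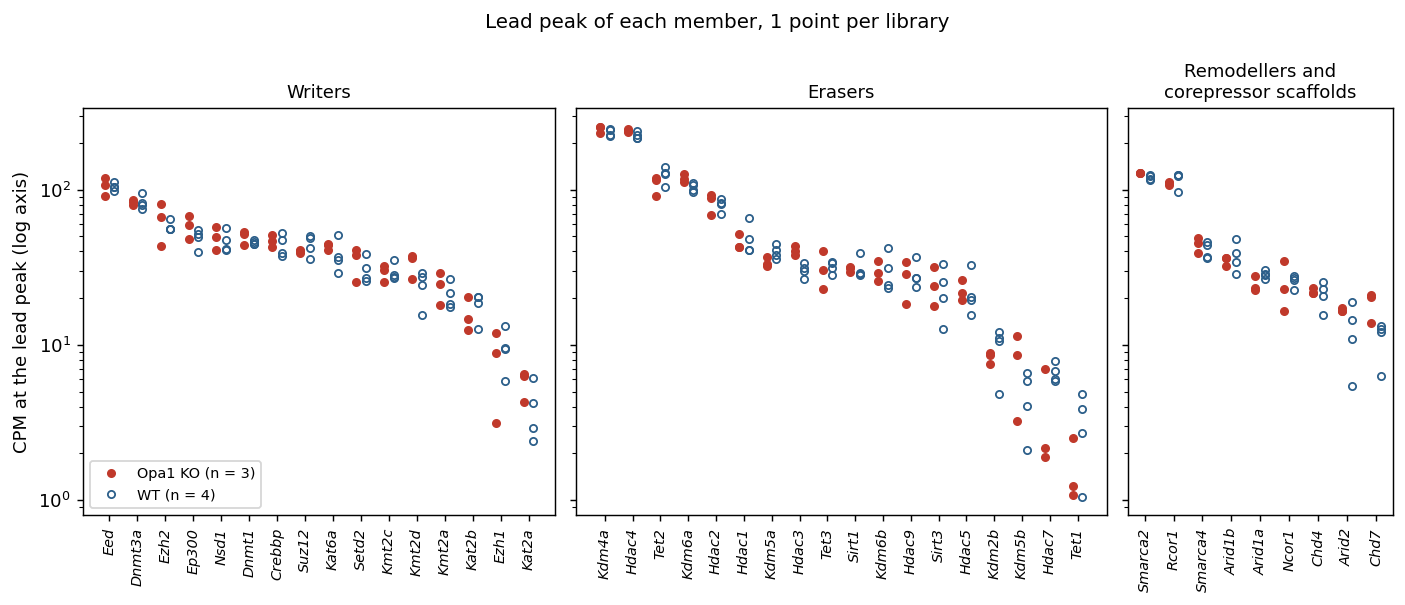
Level of the lead peak of each member in CPM on a log axis, 1 point per library, Opa1 KO (filled) left of WT (open), with members ordered by level within writers, erasers and remodellers. The lead peaks of Kdm4a and Hdac4 stand above 200 CPM in every library of both genotypes, and the genotypes lie close together at most genes.

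Among the 42 tested lead peaks, 27 lay above a log2 fold change of 0 and 15 below, with a median of 0.05 and a range of -0.88 to 0.76. The interval lay inside 1.5-fold at 27 of them. The plot of lead peaks by library shows the same, with points of both genotypes mixed at most members. The lowest lead peak, that of Tet1, stood at 1.08 to 2.53 CPM in KO and 1.05 to 4.82 CPM in WT and was too weak to test.

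Sequences at the starts of some members named in the results are shown. They do not cover every strongest site or every site with the smallest p. For Tet2, Ezh2 and Kdm6a the peak with the smallest p lay away from the listed start, and its sequence is not shown. Each window runs from 250 bases before to 50 after a listed transcript start (RefSeq, GRCm38.p6, the assembly that mm10 names) and lay wholly inside a peak. All are written 5′ to 3′ on the gene's strand. Kdm4a (chr4:118179994-118180293, minus strand) and Smarca2 (chr19:26604910-26605209, plus strand) hold an AP-1 motif in capitals, and Smarca2 also an ETS motif. Kdm6a (chrX:18162325-18162624, plus strand) holds an E-box in capitals and Ezh2 (chr6:47594981-47595280, minus strand) an NRF1 motif. Kmt2c (chr5:25498734-25499033, minus strand) has no capitals. In Tet2 (chr3:133544341-133544640, minus strand) the capitals mark a repeated run of letters described below.
Kdm4a: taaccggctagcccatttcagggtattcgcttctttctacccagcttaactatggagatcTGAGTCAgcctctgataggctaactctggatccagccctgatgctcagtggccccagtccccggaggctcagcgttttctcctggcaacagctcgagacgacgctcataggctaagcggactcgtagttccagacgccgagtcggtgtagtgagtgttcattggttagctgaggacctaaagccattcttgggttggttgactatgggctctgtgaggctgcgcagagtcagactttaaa
Smarca2: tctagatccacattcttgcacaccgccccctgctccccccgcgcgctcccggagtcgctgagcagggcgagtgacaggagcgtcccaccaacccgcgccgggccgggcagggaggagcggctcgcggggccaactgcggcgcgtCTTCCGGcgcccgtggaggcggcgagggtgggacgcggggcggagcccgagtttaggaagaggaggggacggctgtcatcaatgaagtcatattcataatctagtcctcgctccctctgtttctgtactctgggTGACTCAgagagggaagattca
Kdm6a: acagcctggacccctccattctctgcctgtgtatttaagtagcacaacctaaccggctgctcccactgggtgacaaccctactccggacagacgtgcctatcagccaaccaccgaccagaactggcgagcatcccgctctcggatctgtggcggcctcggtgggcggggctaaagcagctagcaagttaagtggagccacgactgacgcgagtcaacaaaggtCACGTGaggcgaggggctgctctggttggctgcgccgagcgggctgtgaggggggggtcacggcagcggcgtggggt
Ezh2: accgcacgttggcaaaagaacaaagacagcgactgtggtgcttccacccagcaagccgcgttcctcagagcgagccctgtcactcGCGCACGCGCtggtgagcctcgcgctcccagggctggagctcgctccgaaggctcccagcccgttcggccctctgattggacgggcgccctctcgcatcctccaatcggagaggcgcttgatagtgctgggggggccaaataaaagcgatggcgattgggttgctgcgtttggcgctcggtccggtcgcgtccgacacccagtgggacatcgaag
Kmt2c: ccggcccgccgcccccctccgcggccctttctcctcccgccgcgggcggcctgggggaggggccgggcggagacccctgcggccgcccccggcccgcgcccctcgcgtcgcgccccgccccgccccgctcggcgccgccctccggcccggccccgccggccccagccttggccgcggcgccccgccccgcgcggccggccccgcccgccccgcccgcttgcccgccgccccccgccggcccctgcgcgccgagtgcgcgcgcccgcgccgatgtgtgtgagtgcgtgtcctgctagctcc
Tet2: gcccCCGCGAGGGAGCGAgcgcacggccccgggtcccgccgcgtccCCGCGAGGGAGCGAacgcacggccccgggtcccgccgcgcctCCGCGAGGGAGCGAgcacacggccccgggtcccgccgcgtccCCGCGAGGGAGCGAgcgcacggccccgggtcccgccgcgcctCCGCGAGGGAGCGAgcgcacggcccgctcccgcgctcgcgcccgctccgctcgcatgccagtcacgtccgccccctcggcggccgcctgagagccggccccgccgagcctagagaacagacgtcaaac

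Of the 35 members with a listed start, 30 had a peak over it. Their windows had a median GC content of 69.5% and a median of 31.5 CpG sites, against 62.0% and 22 in all 10295 windows under a peak and 52.7% and 7 in all 32851 windows. The motif GGGCGG of the SP family was present on either strand in 23 of 30 windows (76.7%) and in 68.6% of all windows under a peak. The NRF1 motif (GCGCA, any base, GCGC) was in 4 (13.3%), those of Dnmt1, Ezh1, Ezh2 and Smarca4, against 12.4%. The ETS motif CCGGAAG was in 3 (10.0%), those of Ncor1, Sirt3 and Smarca2, against 21.3%. The E-box CACGTG was in 3 (10.0%), those of Hdac5, Kdm6a and Sirt1, against 11.1%. The AP-1 motif TGANTCA was in 2 (6.67%), those of Kdm4a and Smarca2, against 4.67%. The NFY motif CCAAT was in 11 (36.7%) against 39.6%, and the CRE motif TGACGTCA in 0 against 3.77%. Of these 7 motifs, overlaps between different motifs were not removed.

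The Tet2 window held a repeat. The run CCGCGAGGGAGCGA occurred 5 times in it, and this was the only 1 of the 32851 windows with 2 or more copies. It was the longest run of letters present at least 5 times and was looked for after the sequence had been seen. The letters between its copies also recur with few changes, so the full repeat is longer than this run. Because the run was taken from the Tet2 window itself, that count does not show how rare repeats are at starts. The Kmt2c window was 88.0% GC and held the SP motif 12 times. A motif match describes letters only and names no bound factor.

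Writers showed no called peak among 70 tested, with 32 above 0, 38 below and a median log2 fold change of -0.04. The DNA methyltransferases are Dnmt1, which copies methylation after replication, and Dnmt3a, which methylates new sites. Of their 14 tested peaks 7 lay above 0 and 7 below. Summed over its 15 peaks, Dnmt3a had 320.4 ± 5.51 CPM in KO and 332 ± 2.67 CPM in WT, with a 95% interval of -0.20 to 0.09 on the log2 scale. The groups overlapped, with libraries at 324, 314 and 323 CPM in KO and 335, 346, 315 and 330 CPM in WT. The Dnmt3a lead peak, 20146 bp from the listed start, had 82.8 ± 2.76 CPM in KO and 81.8 ± 6.11 CPM in WT. Dnmt1 summed to 63.3 ± 6.23 CPM in KO and 59.6 ± 3.07 CPM in WT.

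The Polycomb members Ezh1 and Ezh2, the catalytic subunits, and Eed and Suz12, their core partners, had 15 tested peaks, 5 above 0 and 10 below, with a median of -0.17. Of these 15 peaks, 1 had an unadjusted p under 0.05, a distal site of Eed. The Ezh2 peak 25765 bp outside the gene (chr6:47621035-47621540) had 14.2, 15.8 and 11.9 CPM in KO and 20.3, 16.2, 20.5 and 22.1 CPM in WT. All KO libraries lay below all WT libraries, the log2 fold change being -0.51 ± 0.27 (SE; unadjusted p = 0.0658, adjusted p = 0.563). At the Ezh2 start (chr6:47594917-47595457) the KO libraries spread from 43.1 to 80.9 CPM around WT libraries of 55.4 to 65.0 CPM. The Eed peak 26129 bp outside its gene had 59.2, 91.6 and 63.6 CPM in KO and 113, 73.8, 80.7 and 81.7 CPM in WT, the log2 fold change being -0.33 ± 0.14 (SE; adjusted p = 0.441). The Eed start had 105 ± 13.9 CPM in KO and 105 ± 6.7 CPM in WT. Suz12 summed to 40.2 ± 0.92 CPM in KO and 44.8 ± 4.57 CPM in WT.

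The histone methyltransferases Kmt2a, Kmt2c and Kmt2d, of the MLL family that marks promoters and enhancers, with Setd2 and Nsd1, which mark active gene bodies, had 18 tested peaks, 8 above 0 and 10 below. The writer peak with the smallest p covered the start of Kmt2c (chr5:25498654-25499237). It had 24.0, 33.5 and 42.1 CPM in KO and 15.99, 18.3, 20.5 and 27.4 CPM in WT. KO replicate 1 lay within the WT range, and the log2 fold change was 0.66 with an SE of 0.23 (adjusted p = 0.314). A neighbouring Kmt2c peak, 565 bp outside the gene, had 29.4 ± 3.67 CPM in KO and 28.8 ± 2.59 CPM in WT. The Kmt2d end peak (chr15:98831335-98831687), which also touches another gene, had 33.4 ± 6.0 CPM in KO and 25.5 ± 4.82 CPM in WT, with overlap. An intragenic Kmt2a peak had 13.7 ± 3.99 CPM in KO and 19.4 ± 2.20 CPM in WT, also with overlap. Summed counts of Nsd1 were 95.6 ± 12.2 CPM in KO and 99.98 ± 2.63 CPM in WT, and those of Setd2, a gene with 1 peak, 34.7 ± 8.32 CPM in KO and 29.3 ± 4.87 CPM in WT.

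The histone acetyltransferases Kat2a, Kat2b, Kat6a, Ep300 and Crebbp had 23 tested peaks, 12 above 0 and 11 below. Kat2b, which encodes PCAF, was the richest of them with 15 peaks and a sum of 409 ± 22.8 CPM in KO and 421 ± 18.1 CPM in WT. An intragenic Kat2b peak (chr17:53657039-53657788) had 32.7, 28.4 and 36.7 CPM in KO and 25.2, 18.3, 27.7 and 16.3 CPM in WT. The KO libraries lay above all WT libraries, the log2 fold change being 0.57 ± 0.22 (SE; adjusted p = 0.375), while 8 of the 13 tested Kat2b peaks lay below 0. Ep300, a general coactivator, had 58.3 ± 9.75 CPM in KO and 50.0 ± 4.59 CPM in WT at its lead peak. Its paralog Crebbp, the only member on chromosome 16 with Opa1 and 25.4 Mb from it, summed to 63.4 ± 2.99 CPM in KO and 58.1 ± 7.25 CPM in WT. Kat2a had 1 weak peak with 5.70 ± 1.203 CPM in KO and 3.79 ± 0.77 CPM in WT, and its interval, -0.44 to 1.59, was the widest of the 43 summed members.

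Erasers had 103 tested peaks, 45 above 0 and 58 below, with a median of -0.04 and no call. The TET dioxygenases, which oxidise methylcytosine, took 30 of them, 9 above 0 and 21 below, with a median of -0.16. Tet2 held 13 of the 21, while the tested peaks of Tet1 split 2 above and 2 below and those of Tet3 split 6 and 6. Summed over their peaks, Tet1 had 54.5 ± 6.29 CPM in KO and 53.5 ± 5.71 CPM in WT, and Tet3 187 ± 16.2 CPM in KO and 186 ± 9.82 CPM in WT. An intragenic Tet3 peak (chr6:83411642-83411970) stood the other way round, with 25.6, 29.7 and 21.6 CPM in KO and 16.5, 12.2, 18.7 and 19.0 CPM in WT. All KO libraries lay above all WT libraries, the log2 fold change being 0.61 ± 0.25 (SE; adjusted p = 0.413).

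Tet2 (chr3:133463677-133545136) had 15 peaks, and at 13 of its 14 tested peaks the log2 fold change was below 0. Its peaks summed to 493, 488 and 472 CPM in KO and 581, 508, 553 and 587 CPM in WT. The 3 KO libraries lay below the 4 WT libraries, at 484 ± 10.6 CPM in KO and 566 ± 30.8 CPM in WT. The log2 fold change of -0.21 (95% interval -0.34 to -0.09) did not pass the adjustment over 13290 gene sums (unadjusted p = 0.00101, adjusted p = 0.113 in edgeR's quasi-likelihood test). It passed with limma-voom (adjusted p = 0.0487), with counts halved (0.04997) and without WT replicate 2 (0.0344), and the adjusted p ranged up to 0.428 over the other alternatives. Within the locus, 1 of the 14 tested peaks reached an unadjusted p under 0.05 (9.47% of all tested peaks did), that 18394 bp outside the gene (chr3:133563530-133563903). It had 25.9, 12.6 and 22.7 CPM in KO and 32.0, 29.8, 36.1 and 33.7 CPM in WT. The groups did not overlap, and the log2 fold change was -0.64 with an SE of 0.22 (adjusted p = 0.314). The strongest Tet2 peaks differed less. The peak 26263 bp outside the gene on the other side (chr3:133436865-133437414) averaged 137 CPM in KO and 155 CPM in WT, and the start peak had 115, 91.0 and 118 CPM in KO and 128, 126, 104 and 139 CPM in WT. The peak-by-peak plot of Tet2 shows each of these peaks with its interval.

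**Figure D2:**
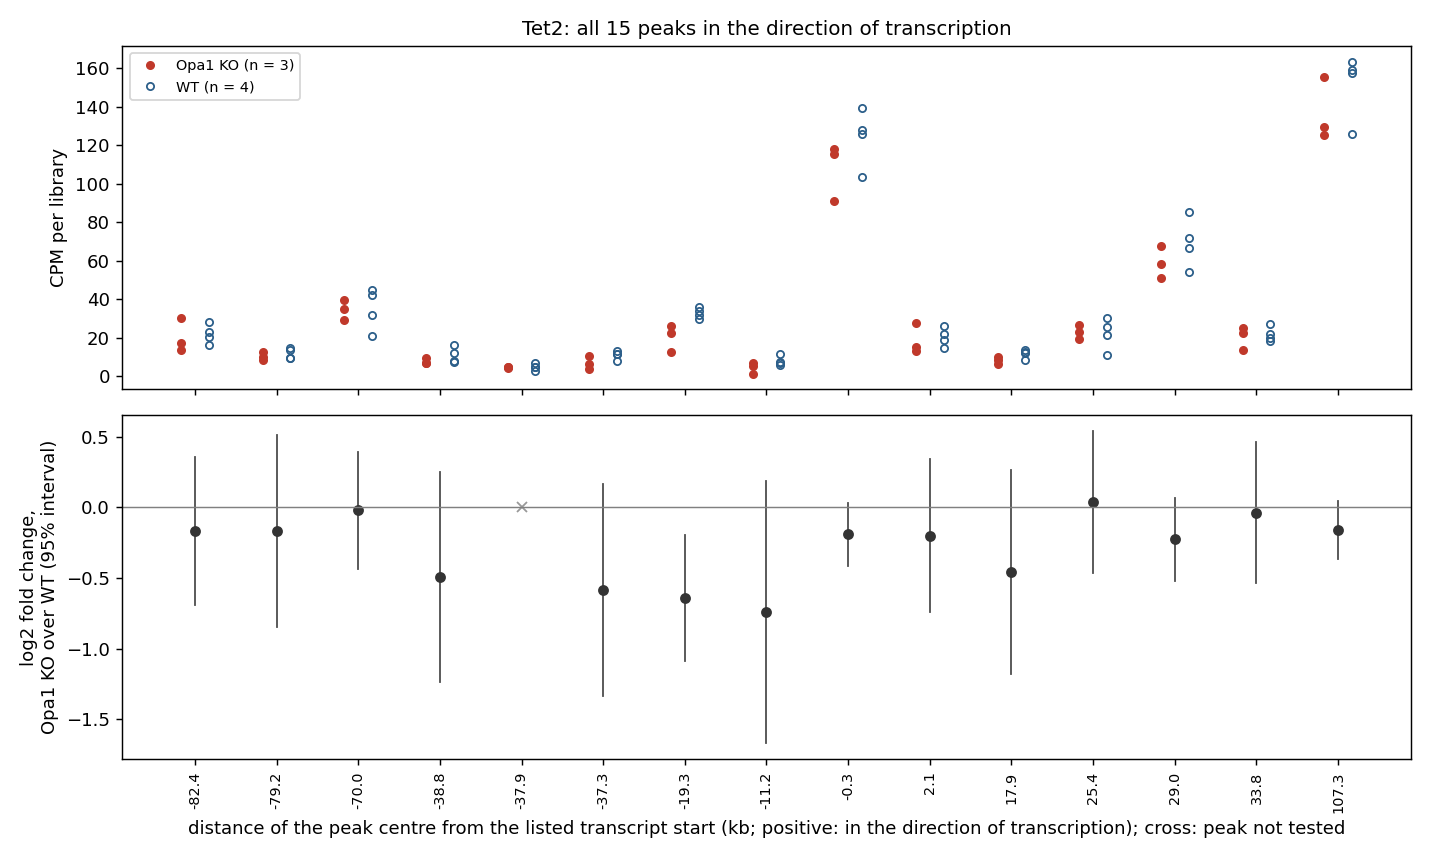
All 15 Tet2 peaks in order along the direction of transcription, labelled by the distance of the peak centre from the listed start in kb, with CPM per library above (Opa1 KO filled, left of WT open) and the log2 fold change of KO over WT with its 95% interval below. Of the 14 tested peaks 13 have an estimate below 0, and the interval leaves out 0 at the peak 18394 bp outside the gene.

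The JmjC demethylases showed no common direction, with 10 of 22 tested peaks above 0 and 12 below. Kdm6a summed to 148 ± 10.2 CPM in KO and 131 ± 6.12 CPM in WT, with overlap between the groups. Its relative Kdm6b, with 6 tested peaks, split 3 and 3 and summed to 129 ± 2.34 CPM in KO and 127 ± 10.3 CPM in WT. Kdm5a, which removes an activating methyl mark, summed to 51.5 ± 4.94 CPM in KO and 59.6 ± 2.27 CPM in WT. Its KO libraries lay below all WT libraries, and the log2 fold change was -0.21 (95% interval -0.52 to 0.09). The lead peak of Kdm5a, 66.8% of its sum, also touches another gene. The related Kdm5b was weak, at 16.8 ± 4.81 CPM in KO and 13.3 ± 4.99 CPM in WT. Kdm2b, whose product binds unmethylated CpG sites and recruits Polycomb complexes, summed to 112 ± 7.38 CPM in KO and 122 ± 7.45 CPM in WT, with 5 of 7 tested peaks below 0.

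The zinc-dependent deacetylases had 47 tested peaks, 25 above 0 and 22 below. Hdac3, the catalytic subunit of the NCoR complex, had 1 peak, at its gene end (chr18:37954842-37955204), which also touches another gene. It had 38.2, 40.4 and 43.1 CPM in KO and 30.0, 31.1, 26.5 and 33.7 CPM in WT. All KO libraries lay above all WT libraries, the log2 fold change being 0.41 ± 0.19 (SE; adjusted p = 0.482). Hdac9 summed to 167 ± 11.8 CPM in KO and 200.1 ± 29.9 CPM in WT over its 28 peaks, with overlap, a log2 fold change of -0.22 and an adjusted p of 0.320. Hdac4, with the largest sum among deacetylases, had 597 ± 26.6 CPM in KO and 552 ± 21.4 CPM in WT, and 11 of its 18 tested peaks lay above 0. Hdac7, a class IIa deacetylase prominent in thymocytes, held the highest fold change of any member peak, 1.14 on the log2 scale, at a weak site with 10.5, 7.58 and 4.31 CPM in KO and 2.91, 5.42, 3.61 and 2.11 CPM in WT. Its summed counts were 165 ± 6.45 CPM in KO and 172 ± 19.4 CPM in WT. The class I deacetylases Hdac1 and Hdac2, subunits of several corepressor complexes, had sums of 50.1 ± 5.20 and 94.99 ± 14.8 CPM in KO and of 56.2 ± 12.0 and 90.4 ± 8.06 CPM in WT. Hdac5 had 40.8 ± 5.12 CPM in KO and 42.7 ± 6.85 CPM in WT. The sirtuins had 4 tested peaks, none with an unadjusted p under 0.05. Nuclear Sirt1 summed to 35.8 ± 1.24 CPM in KO and 38.9 ± 2.23 CPM in WT, and mitochondrial Sirt3 to 29.0 ± 6.51 CPM in KO and 26.4 ± 7.41 CPM in WT.

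Remodellers and scaffolds had 77 tested peaks, 37 above 0 and 40 below, with a median of -0.01. The BAF and PBAF members split 20 above and 28 below, and the CHD members 15 above and 9 below. The smallest p of any member peak was at Chd7, inside the gene (chr4:8838676-8838995). It had 35.1, 48.0 and 37.8 CPM in KO and 28.6, 23.0, 20.5 and 32.7 CPM in WT. All KO libraries lay above all WT libraries, and the log2 fold change was 0.59 with an SE of 0.20 (adjusted p = 0.304). Its lead peak, at the gene end with the lower coordinate (chr4:8689956-8690443), had 21.0, 13.9 and 20.5 CPM in KO and 12.6, 12.2, 13.2 and 6.32 CPM in WT, again without overlap, the log2 fold change being 0.76 ± 0.30 (SE; adjusted p = 0.390). Of the 22 tested Chd7 peaks 14 lay above 0 and 8 below, and 5 had an unadjusted p under 0.05, of which 4 lay above 0. Those 5 were 22.7% of the tested Chd7 peaks, against 9.47% of all tested peaks (4.74% above 0), and none was called. Over the whole locus the sum was 589, 665 and 639 CPM in KO and 633, 569.97, 571 and 534 CPM in WT. KO replicate 1 lay within the WT range, and the log2 fold change was 0.12 with an SE of 0.06 (adjusted p = 0.480). The peak-by-peak plot of Chd7 shows estimates of both signs.

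**Figure D3:**
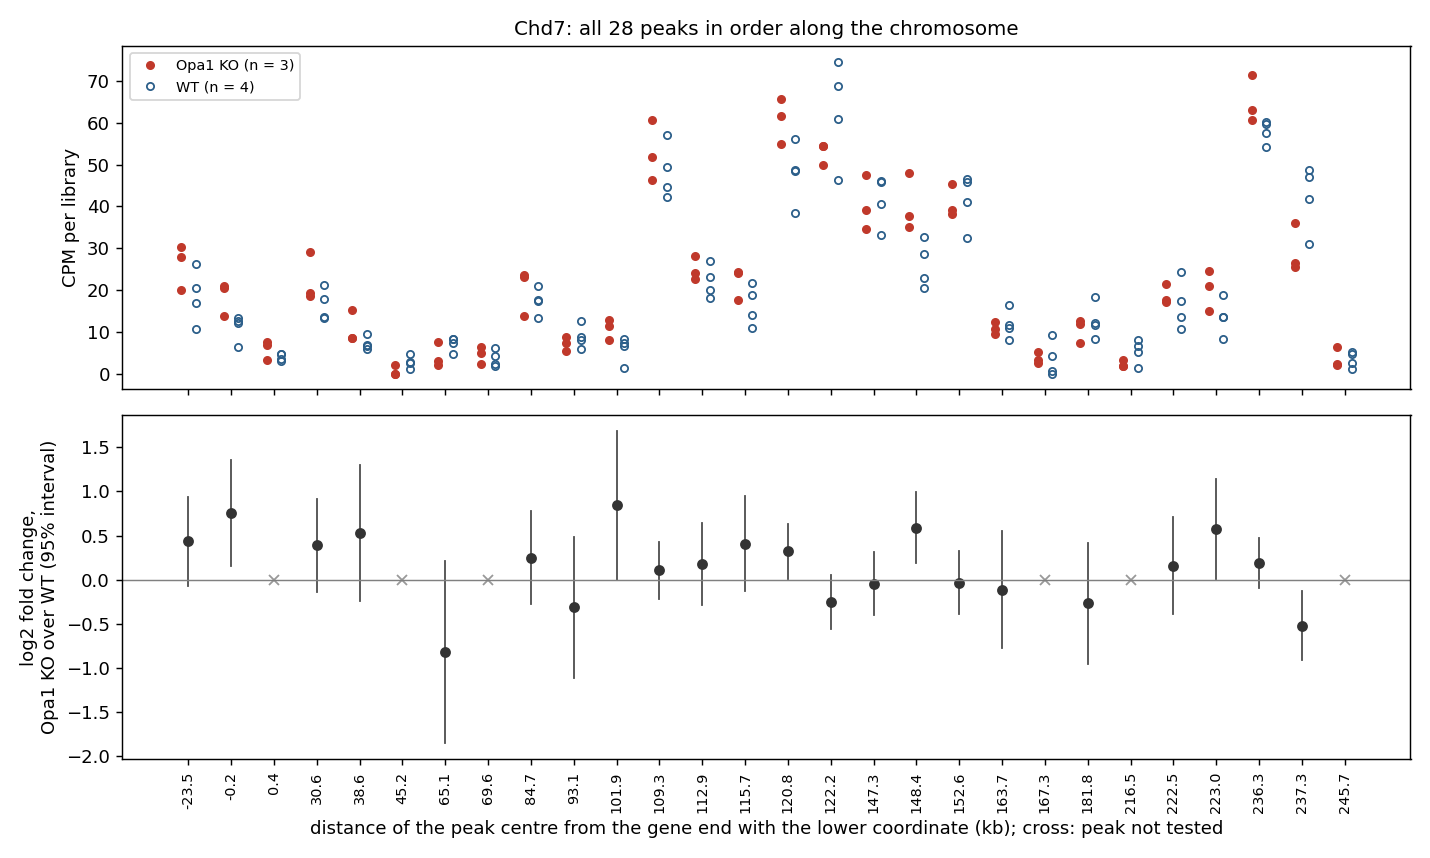
All 28 Chd7 peaks in order along the chromosome, labelled by the distance of the peak centre from the gene end with the lower coordinate in kb, with CPM per library above (Opa1 KO filled, left of WT open) and the log2 fold change of KO over WT with its 95% interval below (crosses: not tested). Estimates lie above 0 at 14 tested peaks and below 0 at 8.

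None of the BAF and PBAF peaks was called. In Arid1b an intragenic peak (chr17:5295632-5296031) had 25.3, 22.8 and 23.7 CPM in KO and 32.9, 35.2, 33.7 and 32.7 CPM in WT. The groups did not overlap, the libraries of each genotype lay close together, and the log2 fold change was -0.48 with an SE of 0.21 (adjusted p = 0.448). The sum of the 35 Arid1b peaks was 402 ± 11.2 CPM in KO and 435 ± 18.1 CPM in WT, with an adjusted p of 0.498. In Arid1a, the subunit that excludes Arid1b from the complex, a peak 604 bp outside the gene (chr4:133757373-133757668) had 10.5, 8.85 and 8.63 CPM in KO and 13.1, 11.5, 18.1 and 22.1 CPM in WT, also without overlap, the log2 fold change being -0.78 ± 0.32 (SE; adjusted p = 0.414). Smarca4, the BRG1 ATPase, had 44.4 ± 4.84 CPM in KO and 39.4 ± 4.85 CPM in WT at its start. A weak intragenic Smarca4 peak had 4.70 ± 0.82 CPM in KO and 7.48 ± 1.52 CPM in WT. Its libraries stood at 4.93, 3.79 and 5.39 CPM in KO and, before averaging, at 9.20, 5.42, 8.43 and 6.32 CPM in WT. The groups thus came close to touching, and the log2 fold change was -0.63 with an SE of 0.47 (adjusted p = 0.721 in edgeR's quasi-likelihood test). The Smarca4 sum of 133 ± 24.4 CPM in KO and 119 ± 4.71 CPM in WT had a log2 fold change of 0.12, which turned to -0.02 without KO replicate 2. Smarca2 summed to 275 ± 19.1 CPM in KO and 272 ± 18.8 CPM in WT, with 4 tested peaks on each side of 0. Arid2, the PBAF subunit, had 27.4 ± 2.05 CPM in KO and 30.0 ± 4.87 CPM in WT. Chd4, the ATPase of the NuRD complex, had 37.3 ± 2.81 CPM in KO and 35.9 ± 3.82 CPM in WT. The scaffolds Rcor1 and Ncor1 had sums of 170.3 ± 10.3 and 24.6 ± 9.09 CPM in KO and of 179.5 ± 8.40 and 25.4 ± 2.45 CPM in WT.

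**Figure D4:**
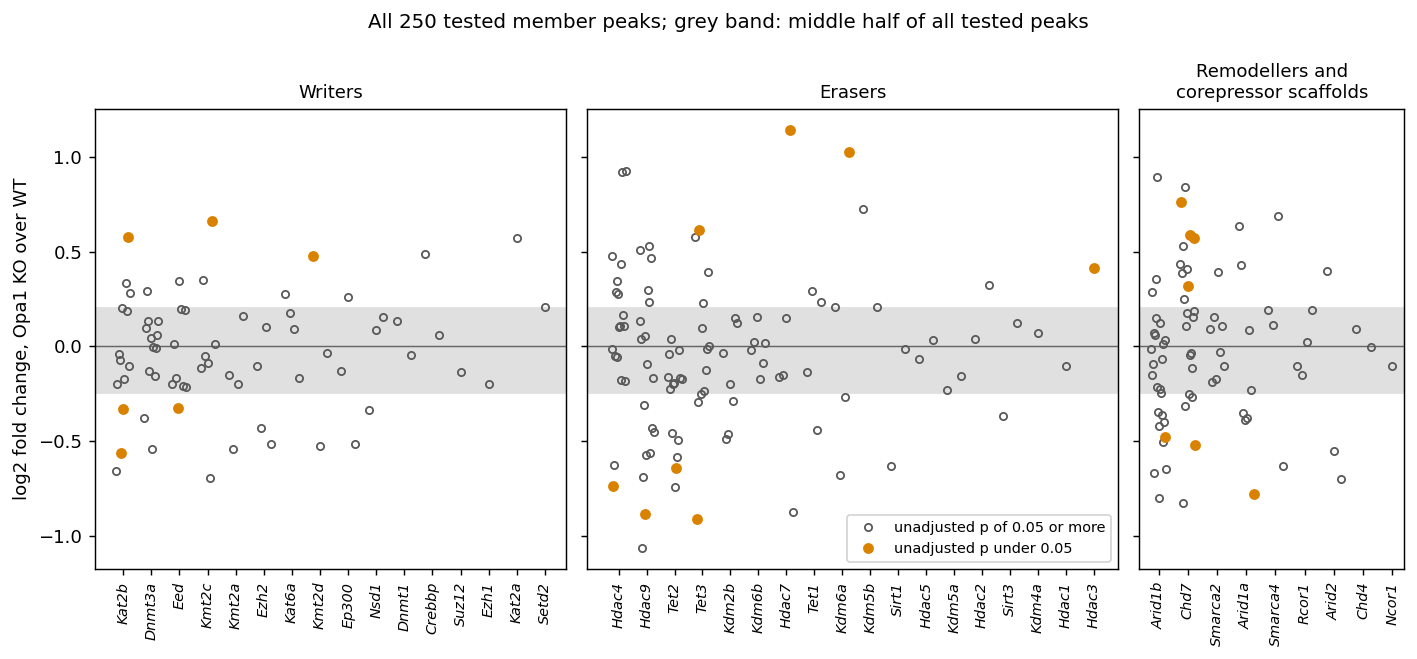
Log2 fold change of KO over WT at each of the 250 tested member peaks, by member within writers, erasers and remodellers, with peaks of an unadjusted p under 0.05 filled in orange and the central range of all tested peaks as a grey band. The 21 orange points lie on both sides of 0, 11 above and 10 below.

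The plot of all member peaks shows that sites of 1 gene commonly pointed both ways. Peaks over a listed start leaned above 0 (20 of 32, median 0.08) and peaks outside the genes below 0 (26 of 42, median -0.14), differences of description that were not tested. The same shares were not computed over all tested peaks, so these leans cannot be called particular to the members. Grouped by the metabolite the enzyme uses, the 9 erasers that use 2-oxoglutarate had 52 tested peaks, 19 above 0 and 33 below, with a median of -0.13, and 13 of the 33 were those of Tet2. The 11 writers grouped under S-adenosylmethionine included Eed and Suz12, which are partners of the catalytic subunits and not methyltransferases themselves. Together these 11 had 20 peaks above 0 and 27 below, with a median of -0.04. The 5 writers that use acetyl-CoA had 12 above and 11 below, with a median of 0.06. In each of these groups 0 peaks were called.

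Counts were also summed over the peaks of each member. Of the 43 sums 0 were called, against 46 of 13290 genes (0.346%), with 21 above 0 and 22 below. An unadjusted p under 0.05 was reached by 3 members, Tet2, Hdac9 and Hdac3 (7.0% of the 43, against 11.4% of all gene sums). The groups did not overlap at 1 member with KO higher, Hdac3, and at 2 with KO lower, Tet2 and Kdm5a. Together these were 7.0% of the 43, against 9.71% of all gene sums in either direction. For 38 of the 43 members the 95% interval lay inside 1.5-fold in either direction, so that a larger shift of the whole locus lay outside the interval there. The plot of summed members shows the remaining 5, Kat2a, Ezh1, Setd2, Kdm5b and Hdac3, whose intervals pass 1.5-fold upwards.

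**Figure D5:**
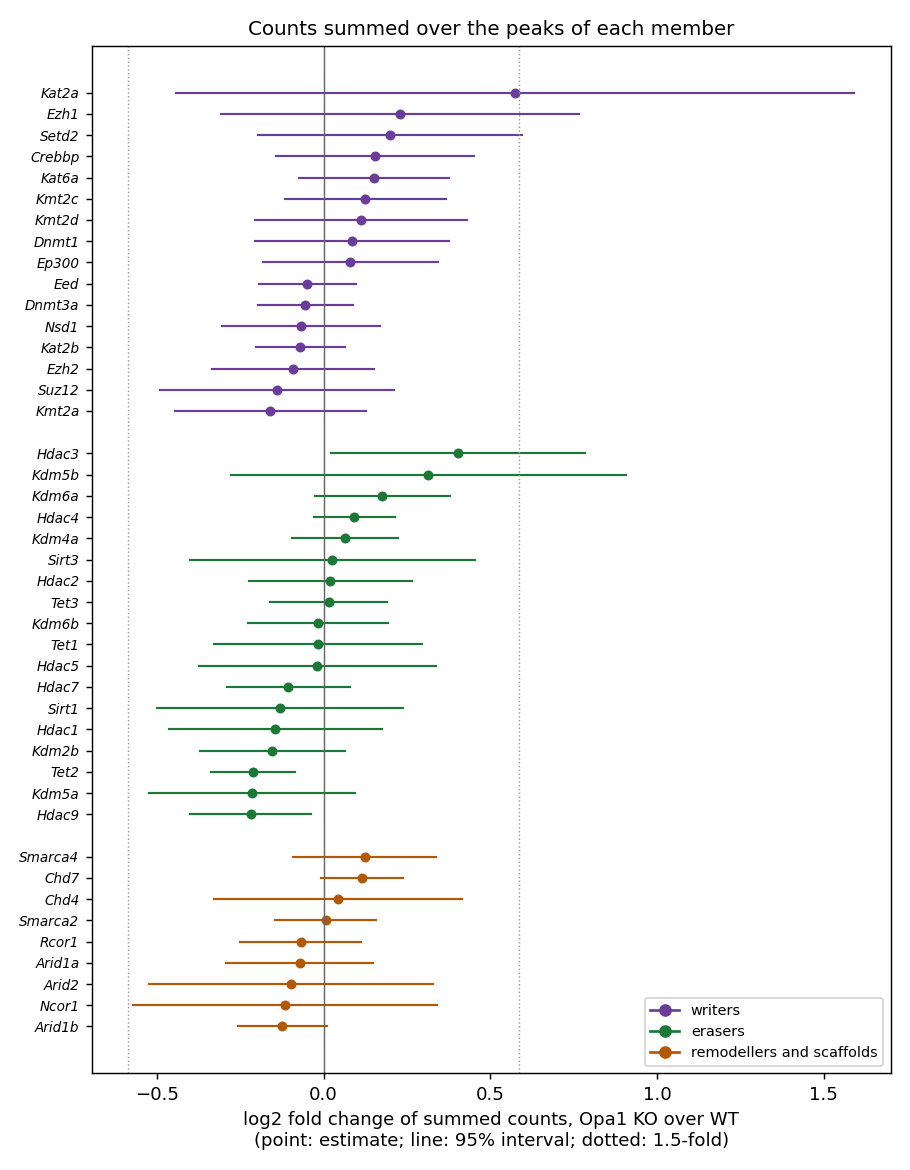
Log2 fold change of KO over WT of the counts summed over each member's peaks (point) with its 95% interval (line), by class, with dotted lines at 1.5-fold. The interval leaves out 0 for Tet2, Hdac9 and Hdac3, and no member passed the adjusted threshold.

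Other genes of the same pathways gave no call either. Of 79 further chromatin regulators, 75 had peaks, and of their 265 tested peaks 0 were called, with 135 above 0 and 130 below and a median of 0.01. An unadjusted p under 0.05 was reached by 17 with KO higher and 5 with KO lower, 8.30% of the 265 against 9.47% of all tested peaks (4.74% higher and 4.73% lower). A peak in Chd3, a NuRD ATPase like Chd4, had 48.2 ± 1.30 CPM in KO and 30.4 ± 6.04 CPM in WT (log2 fold change 0.62, SE 0.18, adjusted p = 0.215). The peak at the end of Rbbp7, a histone-binding subunit of Polycomb and NuRD complexes, had 72.2 ± 2.51 CPM in KO and 51.6 ± 2.02 CPM in WT (0.47, SE 0.14, adjusted p = 0.237). Its libraries stood at 69.3, 73.9 and 73.3 CPM in KO and, before averaging, at 49.4, 60.9, 45.8 and 52.2 CPM in WT. Below 0 were a peak in Cbx7, a Polycomb reader, with 13.4 ± 2.36 CPM in KO and 21.6 ± 4.48 CPM in WT, and a peak in Kat6b, a paralog of Kat6a, with 9.10 ± 1.05 CPM in KO and 15.6 ± 4.30 CPM in WT.

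Of 36 enzymes that make or consume the cofactors of writers and erasers, 35 had peaks, and 0 of their 82 tested peaks were called, with 42 above 0 and 40 below. The following peaks have the smallest p in each direction of this list, so their signs are set by that choice. A peak in Acss2, the nuclear and cytosolic acetyl-CoA synthetase, had 19.1 ± 2.99 CPM in KO and 10.5 ± 3.39 CPM in WT (log2 fold change 0.77, SE 0.30, adjusted p = 0.370). A peak in Acss1, the mitochondrial synthetase, had 6.68 ± 0.76 CPM in KO and 14.1 ± 1.03 CPM in WT (log2 fold change -1.05, SE 0.36, adjusted p = 0.2996). Its libraries stood at 6.16, 6.32 and 7.55 CPM in KO and, before averaging, at 14.5, 14.9, 10.8 and 14.8 CPM in WT. The Acss2 and Acss1 peaks were both without overlap between genotypes. A peak in Idh1, which makes 2-oxoglutarate in the cytosol, had 24.9 ± 4.14 CPM in KO and 16.05 ± 4.74 CPM in WT, and a peak 45223 bp from Nampt, which makes an NAD precursor, had 12.5 ± 1.12 CPM in KO and 18.5 ± 4.85 CPM in WT.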

How the data were processed

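Per the labels, ATAC-seq libraries of sorted splenic Treg cells were compared, 3 Opa1 KO and 4 WT. The authors deposited 1 table of raw counts per peak over 50213 peaks, with no normalization. Per the submitters' processing notes, MACS2 2.1.1 and bedtools 2.25.0 were used on mm10, along with SAMtools 1.9, Picard 2.9.4, BWA 0.7.16 and Trimmomatic 0.36. The sources used here do not give the merging of peaks, any shift for the transposase or the base of peak starts (0 or 1), so peak positions are as deposited. Between 78.0% and 86.3% of counts per library were even, as counting both mates of a read pair would give, in which case counts overstate fragments.

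The member genes, gene lists and tests were chosen with earlier results of these data known. Protein-coding genes came from a RefSeq table of GRCm38.p6, which gives no strand or exons, so intronic and exonic peaks were not separated. Assignment by position does not prove regulation of that gene. The test was edgeR 4.0.16 (robust quasi-likelihood, TMM, filterByExpr with minimum count 10 and total 15) in R 4.3.3, fitted to the 7 libraries by genotype alone. It kept 38041 peaks and removed 12172, and Benjamini-Hochberg adjustment ran over all tested peaks at 0.05. Standard errors are the log2 fold change over the root of F. Counts summed per gene were fitted the same way over 13290 genes. The common biological coefficient of variation was 0.157 for peaks and 0.0887 for gene sums. With counts halved, where fewer peaks passed the filter, it was 0.0377 for peaks. How much of the 0.157 is biological spread was not tested. The script was tested on simulated data. Whether libraries of a genotype were the same sample was checked by chi-square on counts divided by 2.

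Named peaks were, per class, the 6 members with the smallest peak p and the 4 members with the strongest lead peaks. On summed counts they were the 3 members per class with the smallest p, and in each related list the 2 smallest p in each direction. Further members are given by their sums and lead peaks, chosen after their values were seen. Same-numbered KO and WT libraries did not deviate together (r = 0.0106, -0.0119 and 0.00372 for numbers 1 to 3), so the numbers do not pair samples. Alternatives were DESeq2 1.42.0, limma-voom (limma 3.58.1), other scalings and filters, halved counts, other assignment rules and leaving out each library. Tables and plots used Python 3.11.15, pandas 2.3.3, NumPy 2.4.6, SciPy 1.17.1 and matplotlib 3.10.9.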

Additional observations from a re-analysis of the deposited data

Results flagged for a closer look

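At 38 peaks or gene sums the 4 WT libraries were screened for a library far from the others, and chance flags about 1 in 20 such groups. The Rcor1 start peak was lowest in WT replicate 3, with 96.3 CPM against 123 to 125 CPM in the other WT libraries. The Ezh2 start peak was highest in WT replicate 2, with 65.0 CPM against 55.4 to 56.2 CPM in the other WT libraries. The cause was not tested.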

How the results depend on the processing

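Under 18 peak fits and both other assignment rules, 0 member peaks were called. The median log2 fold change of the member peaks was -0.0623 when scaled by total counts alone and ranged from -0.0533 to -0.0074 (without WT replicate 3) with 1 library left out. Over all tested peaks, the 33 calls (18 higher, 15 lower in KO) became 55 with DESeq2, 55 with limma-voom, 60 (25 higher, 35 lower) at a mean count of at least 20, 82 with counts halved and 15 to 43 with 1 library left out. They split 14 higher and 23 lower with total counts only and 12 and 25 with loess offsets. With the replicate number as a block, 13 were called, and the number is no pairing in the design. Among the summed members, Tet2 was the only call, 1 with limma-voom, with counts halved and without WT replicate 2, and 0 in all other fits, so leaving out 1 library gave 0 to 1.

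Of 624 values of single peaks and sums under the alternatives, 606 kept their direction and side of the threshold, 3 passed the threshold (Tet2) and 15 changed sign. Those that changed sign include values of the Ezh2 start (0.10 in the main fit) and of the Smarca4 sum (0.12 in the main fit). The Kdm4a peak gave -0.0021 with loess offsets. The Dnmt3a lead peak gave 0.0100 without the filter and 0.0083 with WT replicates 2 and 3 summed, and -0.0551 to 0.0523 with 1 library left out. The Eed start gave -0.0162 with total counts only, -0.0526 with loess offsets, -0.0160 at a mean count of at least 20, -0.0103 with counts halved, and -0.0653 to 0.105 with 1 library left out. The Ezh2 start gave -0.0175 with limma-voom and -0.11 to 0.36 with 1 library left out. With 1 library left out, the Arid1b lead peak ranged from -0.21 to 0.0492 and the Smarca4 sum from -0.0220 to 0.21. The cause was not tested. The filter on low counts left 60 member peaks untested.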
